A study of Mus musculus with 4 samples.

Results

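The genes that modify, fold, export, trim and crosslink collagen were followed in inflamed and noninflamed mouse synovium, the tissue that lines the joint. Their list holds 34 genes, chosen by known role, with earlier results of these data known. Of these, 31 were measured among 22180 genes in all, each through the probe set with the highest mean signal that carries a single gene symbol. Fkbp10, Loxl2 and Plod3 were not analysed here. RNA of arthritic day 10 synovium, in 2 pools of 10 mice each, was compared with that of nonarthritic synovium, in 2 pools of 3 mice each, with 1 Affymetrix MoGene 2.0 ST array per pool. All mice were C57BL/6J males, and disease was induced at 12 weeks of age. The arthritic mice had been injected in the peritoneum 3 times, on days 0, 2 and 7, with 150 microlitres of serum that causes arthritis, a serum transfer arthritis (STA) model with K/BxN as the serum source strain. The nonarthritic mice had the same volume of phosphate buffered saline, per the protocols. The sample labels nevertheless give K/BxN serum and day 0 for the nonarthritic pools, so the day on which that tissue was taken is not clear. Tissue came from around the tibiotalar joint and was not sorted, and each array averages several animals. Labelled day and animals per pool go with the groups and cannot be told apart from arthritis.

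Procollagen chains are hydroxylated on proline and lysine as they enter the endoplasmic reticulum (ER), and some hydroxylysines receive sugars. Chaperones and prolyl isomerases then help the chains to fold into a helix, which leaves the ER in enlarged coated carriers. Outside the cell the propeptides are cut off, and lysyl oxidases start the crosslinks that give fibrils their strength. Synovial fibroblasts, chondrocytes, tendon cells and bone cells all run this pathway, and defects in many of its genes cause brittle bones or loose joints in humans.

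Values are RMA log2 signals, so a difference of 1 is a 2-fold change. Array medians ran from 6.96 to 7.15. The 31 genes had mean signals of 7.71 or more over the 4 arrays, above the 95th percentile of 1105 olfactory receptor genes (6.98), which stand in for background here. Lubricin (Prg4), which marks the synovial lining, read 13.27 and 13.52 in arthritic pools 1 and 2, against 13.66 and 13.66 in nonarthritic pools 1 and 2. Clic5 fell, with 10.22 and 9.32 in the arthritic pools, against 12.30 and 12.20 in the nonarthritic pools. Both belong to a list of 10 fibroblast markers, of which 4 rose and 2 fell. The tissue held more than lining. The mean log2 signal of 8 skeletal muscle markers was 9.09 and 8.55 in the arthritic pools, against 11.57 and 11.96 in the nonarthritic pools, and all 8 fell. All 5 measured adipocyte markers fell as well, with mean signals of 7.55 and 7.31 in the arthritic pools, against 10.33 and 10.19 in the nonarthritic pools. All 7 neutrophil markers and all 4 measured proliferation markers rose. With arthritic pool 1, arthritic pool 2, nonarthritic pool 1 and nonarthritic pool 2 left out in turn, 8, 4, 8 and 5 muscle markers and 5, 3, 4 and 4 adipocyte markers fell. In the same order 6, 3, 7 and 6 neutrophil markers and 2, 0, 4 and 0 proliferation markers rose, all 4 of these last at an unadjusted p under 0.05 with all arrays.

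Rises, falls and calls refer here to a limma p-value under 0.05 after Benjamini-Hochberg adjustment over the 22180 genes. Of the 31 genes 15 rose and 2 fell, 54.8% in all, where 15.3% of all genes were called, 8.72% as higher and 6.62% as lower. As the list was chosen with earlier results of these data known, this contrast describes the list and does not test it. The log2 fold change was above 0 for 26 of the 31 genes, called or not. The median log2 fold change of the 31 genes was 0.61 and that of all genes was 0.005. The signals of the groups did not overlap for 29 of the 31 genes (93.5%), nor for 56.4% of all genes. They overlapped for Fkbp7 and Mia3. Less RNA per cell and fewer cells of a type cannot be told apart in such pools. Of 10 fibroblast markers 4 rose and 2 fell, with mean signals of 11.50 and 11.35 in the arthritic pools, against 11.38 and 11.24 in the nonarthritic pools. Of 5 tendon cell markers 2 rose, with mean signals of 11.12 and 10.67 in the arthritic pools, against 10.29 and 9.89 in the nonarthritic pools. Of 9 chondrocyte markers 5 rose and 2 fell, with means of 10.00 and 9.56 in the arthritic pools, against 9.88 and 9.68 in the nonarthritic pools. Their log2 summed signal, which the brightest genes set, was 14.06 and 13.77 in the arthritic pools, against 14.74 and 14.56 in the nonarthritic pools. Of 8 osteoblast and osteocyte markers 1 rose and 3 fell, with a log2 summed signal of 12.16 and 11.23 in the arthritic pools, against 12.68 and 12.51 in the nonarthritic pools. The part of these cell markers in the results was not tested.

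**Figure D1:**
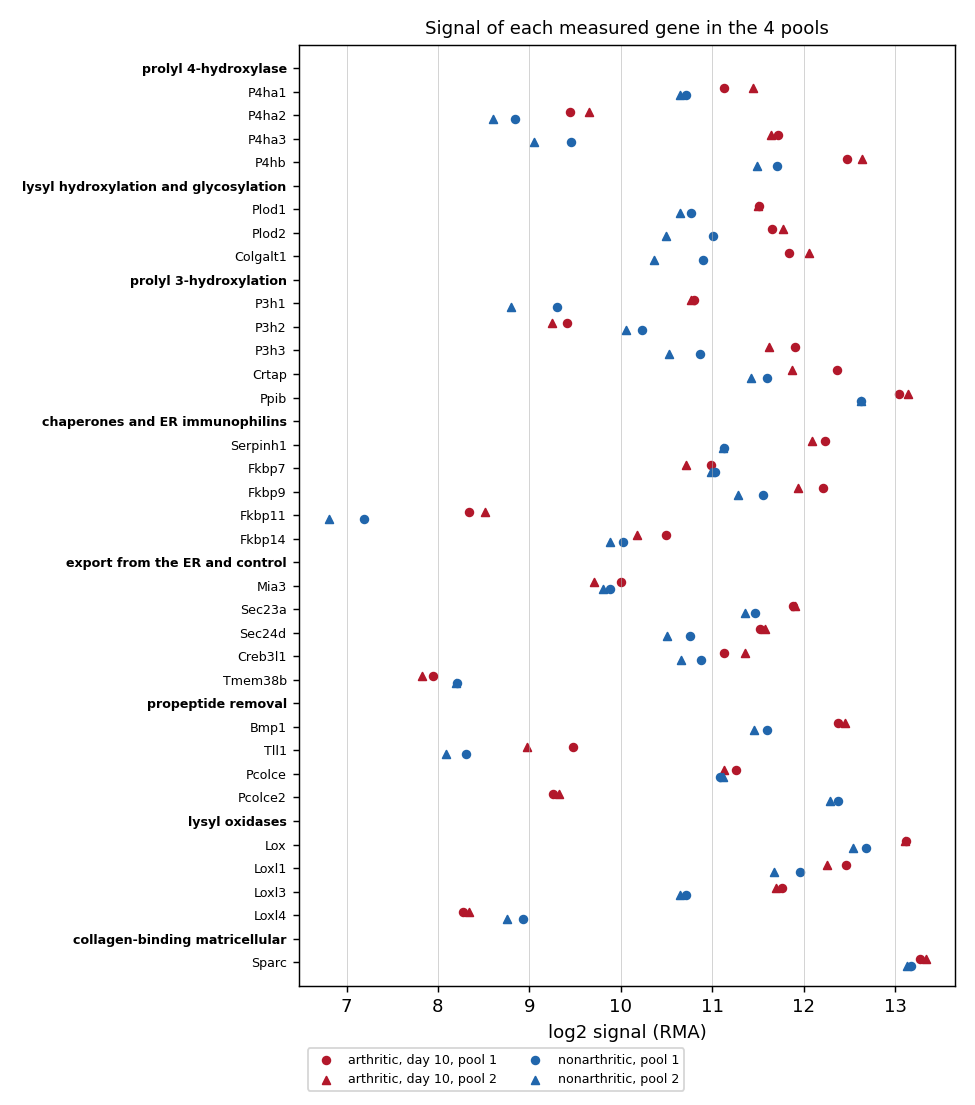
Log2 signal (x axis) of the 31 measured genes, by role, in arthritic pools 1 and 2 (red) and nonarthritic pools 1 and 2 (blue), with circles for pool 1 and triangles for pool 2. The red points lie right of the blue ones for most genes and far left for Pcolce2, and levels are to be compared within a gene only.

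The number of calls rests on having all 4 arrays. With arthritic pool 1 left out, 1 of the 31 genes rose and 1 fell (2.93% of all genes were called). Without arthritic pool 2 the limma counts were 0 and 1 (0.685% of all genes), and without nonarthritic pool 1 they were 7 and 1 (5.5%). Without nonarthritic pool 2 they were 2 and 1 (1.59%). Counts at an unadjusted p under 0.05 are given for some lists in this text. The share of all genes at that threshold is not given, so those counts cannot be set against it. In every one of the 4 fits 30 of the 31 genes kept their sign, the exception being Mia3. For the 29 genes whose groups did not overlap the sign could not change, so this shows nothing further about them. The median log2 fold change of the 31 genes was 0.59, 0.72, 0.70 and 0.52 in the same order. With a pool left out, the remaining array of that group is assumed to vary like the other group. Pcolce2 was called in all 4 fits, P4ha3 in 3 and P3h1 in 2. Plod2, Colgalt1, Fkbp11, Sec24d and Loxl3 were called in 1, the fit without nonarthritic pool 1. The 9 other called genes lost their call in each fit.

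**Figure D2:**
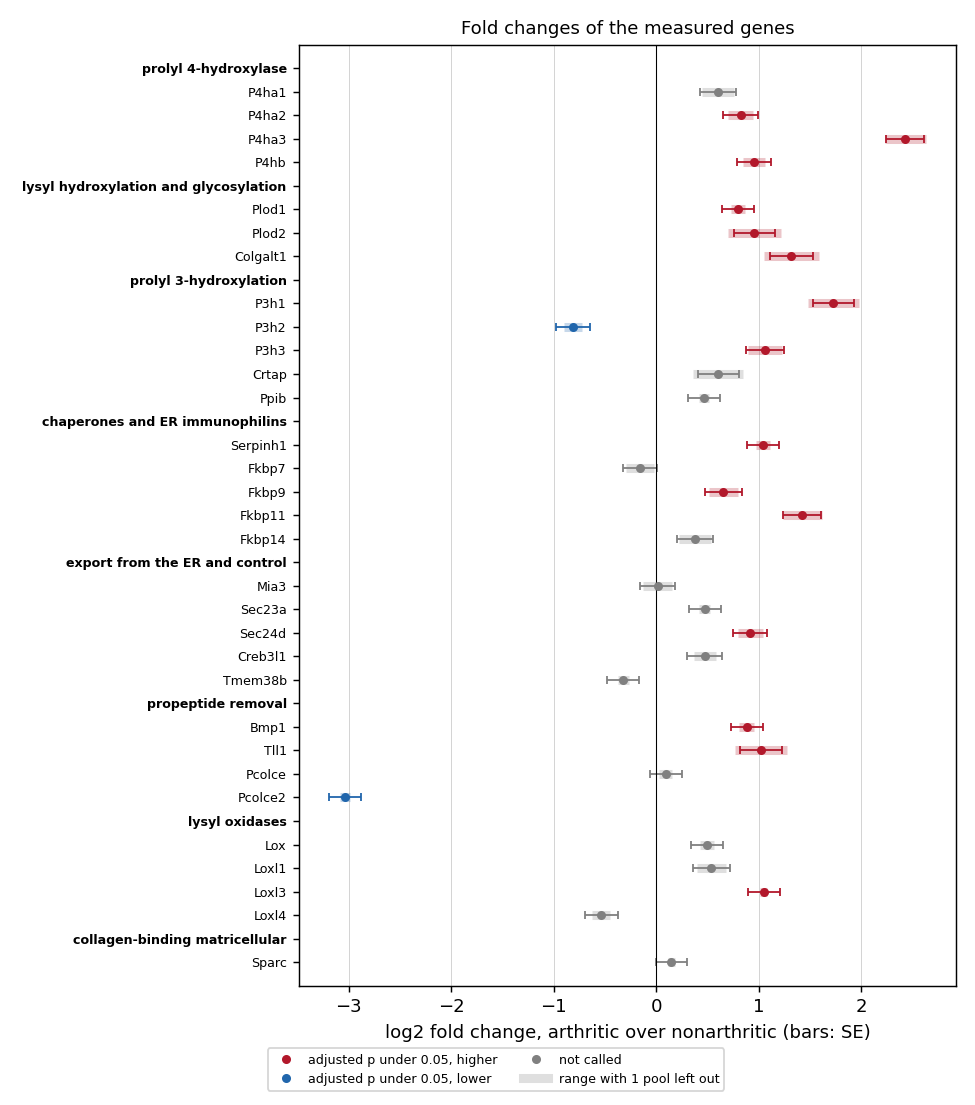
Log2 fold change of arthritic over nonarthritic synovium (x axis) for the 31 genes, with the SE from limma as bars and the range over the 4 fits that leave out 1 pool as pale bands. The 15 genes that rose are red, P3h2 and Pcolce2, which fell, are blue, and the 14 others are grey.

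Prolyl 4-hydroxylase makes the hydroxyprolines that keep the collagen helix stable at body temperature, and its alpha subunits carry the active site. The alpha subunit gene P4ha3 had the largest rise of the 31. It read 11.72 and 11.64 in arthritic pools 1 and 2, against 9.45 and 9.05 in nonarthritic pools 1 and 2. The lowest arthritic value thus stood more than 2 log2 units above the highest nonarthritic one. P4ha3 averaged 11.68 ± 0.057 in arthritic and 9.25 ± 0.28 in nonarthritic synovium (SD, n = 2 pools each), a 5.39-fold rise (log2 fold change 2.43 ± 0.18 SE, adjusted p = 0.000238 in limma). Of all genes, 99.7% had a lower log2 fold change. Without arthritic pool 2 the log2 fold change of P4ha3 was 2.47 and its call was lost (adjusted p = 0.0541). The other alpha subunits differed less. P4ha2 read 9.44 and 9.65 in the arthritic pools, against 8.84 and 8.60 in the nonarthritic pools (log2 fold change 0.83 ± 0.17, adjusted p = 0.016 in limma). P4ha1, whose pools did not overlap either, had a log2 fold change of 0.61 ± 0.17 and just missed the threshold (adjusted p = 0.0508). It passed with arrays centred on medians (0.0283), without dim genes (0.0274) and with an intensity trend in the variance prior (0.0249). It did not pass with quantile normalization again (0.0775), averaged probe sets (0.0501) or the pool number as a block (0.0856). Its log2 fold change ran from 0.45 without arthritic pool 2 to 0.76 without arthritic pool 1. P4hb, the disulfide isomerase that serves as beta subunit, read 12.47 and 12.63 in the arthritic pools, against 11.70 and 11.49 in the nonarthritic pools. It rose by 0.96 ± 0.17 on the log2 scale. P4ha2 and P4hb lost their calls whichever pool was left out, with log2 fold changes of 0.71 to 0.95 and 0.85 to 1.06. Whether the rise of P4ha3 exceeds that of P4ha1 or P4ha2 was not tested.

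The start region of P4ha3 is shown because the gene rose most, beside that of Pcolce2, which fell most. Each window holds 250 bases before and 50 after an annotated RefSeq start in build GRCm38.p6, at chr7:100285270-100285569 (plus strand) and chr9:95637378-95637677 (plus strand), and is written 5′ to 3′ along the gene. Capitals mark GGGCGG, the core of the GC box that Sp1-type factors bind, on either strand.
P4ha3: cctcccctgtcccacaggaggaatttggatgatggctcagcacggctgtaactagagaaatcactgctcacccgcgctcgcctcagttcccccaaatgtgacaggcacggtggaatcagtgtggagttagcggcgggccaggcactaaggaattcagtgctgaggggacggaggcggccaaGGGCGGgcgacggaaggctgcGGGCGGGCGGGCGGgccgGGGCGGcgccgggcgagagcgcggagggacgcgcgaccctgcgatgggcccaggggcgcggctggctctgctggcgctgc
Pcolce2: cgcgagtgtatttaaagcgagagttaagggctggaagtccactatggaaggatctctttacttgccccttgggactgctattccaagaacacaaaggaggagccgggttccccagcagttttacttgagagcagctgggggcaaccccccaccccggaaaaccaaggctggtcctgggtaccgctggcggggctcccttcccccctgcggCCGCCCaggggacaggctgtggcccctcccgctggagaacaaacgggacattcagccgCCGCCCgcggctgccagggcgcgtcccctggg
The P4ha3 window holds 5 such matches, some of which overlap, all before the start and between 69 and 30 bases from it. The Pcolce2 window holds 2. GGGCGG occurred in 22 of 28 windows of the listed genes and in 35.7% of all 32851 windows. The windows of the listed genes had a median GC content of 60.7%, and all windows one of 52.7%. A match of letters is not a bound site.

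Lysyl hydroxylases prepare lysines for sugar attachment and for the stable crosslinks of bone and cartilage. All 3 measured genes of this step rose. Plod1, the hydroxylase of helical lysines, read 11.51 and 11.50 in arthritic pools 1 and 2, against 10.77 and 10.64 in nonarthritic pools 1 and 2 (log2 fold change 0.80 ± 0.16, adjusted p = 0.0124 in limma). The arthritic pools of Plod1 were almost equal. Plod2, which acts on the telopeptides where crosslinks form, read 11.65 and 11.77 in the arthritic pools, against 11.01 and 10.49 in the nonarthritic pools. Its log2 fold change was 0.96 ± 0.20 (adjusted p = 0.0169), and 0.70 without nonarthritic pool 2. Colgalt1, the enzyme that adds galactose to hydroxylysine, read 11.84 and 12.06 in the arthritic pools, against 10.90 and 10.36 in the nonarthritic pools. Its rise was 2.50-fold (log2 fold change 1.32 ± 0.21, adjusted p = 0.00527). Plod2 and Colgalt1 were the pair whose nonarthritic pools lay furthest apart, by 0.52 and 0.54, and both were called only without nonarthritic pool 1 (1.22 and 1.59) when a pool was left out. The log2 fold change of Plod1 ran from 0.74 to 0.87 in those 4 fits, with no call. Colgalt2, the second galactosyltransferase gene and no member of the list, moved the other way: it read 8.28 and 7.60 in the arthritic pools, against 10.07 and 9.78 in the nonarthritic pools. It fell by 1.99 ± 0.24 on the log2 scale (adjusted p = 0.00151), and by 2.33 to 1.65 with a pool left out, with its call kept without arthritic pool 1 only.

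The prolyl 3-hydroxylases split. P3h1, which forms an ER complex with Crtap and the cyclophilin Ppib, read 10.80 and 10.76 in arthritic pools 1 and 2, against 9.30 and 8.80 in nonarthritic pools 1 and 2. This was a 3.32-fold rise, the second largest of the 31 genes (log2 fold change 1.73 ± 0.20, adjusted p = 0.00118 in limma). P3h3, which in mice works with P3h4 to support lysyl hydroxylation, read 11.90 and 11.62 in the arthritic pools, against 10.86 and 10.53 in the nonarthritic pools. It rose by 1.07 ± 0.19 on the log2 scale (adjusted p = 0.00799). P3h4, named here from a list of further modification genes, rose by 1.47 ± 0.20 (adjusted p = 0.00277). P3h2, whose substrates include the collagen of basement membranes, was opposite: it read 9.41 and 9.25 in the arthritic pools, against 10.23 and 10.05 in the nonarthritic pools. It was 1.75-fold lower (log2 fold change -0.81 ± 0.16, adjusted p = 0.0143). P3h1 kept its call when nonarthritic pool 1 (1.98) or nonarthritic pool 2 (1.48) was dropped and lost it when arthritic pool 1 (1.71) or arthritic pool 2 (1.75) was. P3h2 (-0.90 to -0.72) and P3h3 (0.90 to 1.23) were not called in any of these fits, and P3h4 (1.21 to 1.72) in 1 of them.

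The partners of P3h1 were less clear. Crtap, the scaffold of the complex, read 12.36 and 11.87 in the arthritic pools, against 11.60 and 11.42 in the nonarthritic pools (log2 fold change 0.61 ± 0.20, adjusted p = 0.0843 in limma). Ppib read 13.04 and 13.14 in the arthritic pools and 12.62 in both nonarthritic pools (0.47 ± 0.15, adjusted p = 0.082). Neither passed the test, although the pools of each gene did not overlap. Crtap passed without dim genes (adjusted p = 0.0467) and with an intensity trend (0.0397), and Ppib with the trend (0.00895). With arrays centred on medians neither passed (0.0606 for Crtap and 0.0567 for Ppib). The same held with quantile normalization again (0.115 and 0.0906). The log2 fold change of Crtap was 0.36 without arthritic pool 1 and 0.85 without arthritic pool 2. The 3 genes of the complex therefore had log2 fold changes of 1.73, 0.61 and 0.47 in the same tissue, and the differences between them were not tested.

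Serpinh1 encodes HSP47, the chaperone that binds folded procollagen and little else. It read 12.23 and 12.09 in arthritic pools 1 and 2, against 11.13 and 11.11 in nonarthritic pools 1 and 2, so the groups were about 1 log2 unit apart and the pools of each group close. The rise was 2.06-fold (log2 fold change 1.04 ± 0.16, adjusted p = 0.00402 in limma), with 0.97 to 1.11 when a pool was left out and no call in those fits. The ER prolyl isomerases of the FKBP group differed among themselves. Fkbp11, which is abundant in secretory cells, read 8.34 and 8.51 in the arthritic pools, against 7.19 and 6.81 in the nonarthritic pools (1.43 ± 0.18, adjusted p = 0.0021). It was called again without nonarthritic pool 1 (1.62) and not in the other 3 fits. Its nonarthritic signals lay on either side of 6.98, the 95th percentile of olfactory receptor genes. Of 7 plasma cell and B cell markers, another class that makes Fkbp11, 2 rose and 2 fell, with mean signals of 7.69 and 7.68 in the arthritic pools, against 7.87 and 7.91 in the nonarthritic pools. Fkbp9 read 12.21 and 11.93 in the arthritic pools, against 11.55 and 11.28 in the nonarthritic pools, and passed narrowly (0.66 ± 0.18, adjusted p = 0.0461). Its second probe set gave a log2 fold change of 1.03. The call of Fkbp9 was lost with quantile normalization again (adjusted p = 0.0591). Fkbp9 had 0.52 to 0.80 with a pool left out, always without a call. Fkbp14, mutated in a human form of Ehlers-Danlos syndrome, had a log2 fold change of 0.38 ± 0.18 (adjusted p = 0.2), and Fkbp7 one of -0.16 ± 0.17 (adjusted p = 0.597), both in limma.

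Of the genes for export from the ER, Sec24d rose. It encodes a cargo-binding subunit of the COPII coat, which buds carriers from the ER, and read 11.52 and 11.57 in arthritic pools 1 and 2, against 10.75 and 10.50 in nonarthritic pools 1 and 2. The log2 fold change was 0.92 ± 0.17 (adjusted p = 0.00871 in limma), and 0.80 to 1.05 with a pool left out, with its call kept without nonarthritic pool 1 only. Its coat partner Sec23a, which is mutated in a human skull and bone disorder, read 11.88 and 11.90 in the arthritic pools, against 11.47 and 11.36 in the nonarthritic pools. At 0.48 ± 0.16 it did not pass (adjusted p = 0.0801), and it passed without dim genes (adjusted p = 0.0494) and with an intensity trend in the variance prior (0.0244). It did not pass with arrays centred on medians (0.0608) or with quantile normalization again (0.0926). Mia3, the TANGO1 receptor that loads procollagen into carriers, read 10.00 and 9.71 in the arthritic pools, against 9.88 and 9.80 in the nonarthritic pools, and these values overlapped. Its log2 fold change was 0.015 ± 0.17 and turned to -0.039 after quantile normalization. Creb3l1, the transcription factor OASIS that drives collagen secretion genes in bone, had 0.48 ± 0.17 (adjusted p = 0.106). Tmem38b, an ER potassium channel gene linked to brittle bone disease in humans, had -0.32 ± 0.16 (adjusted p = 0.22). Of the other COPII cargo subunits, Sec24a, Sec24b and Sec24c had log2 fold changes of 0.25, 0.29 and 0.13, none of them called.

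The start regions of 4 genes are shown because they share TGACGTG, a site that factors of the OASIS and XBP1 type can bind. TGACGTG was found on either strand in 4 of 28 windows of the listed genes, all 4 in this paragraph, and in 2.01% of all 32851 windows. Capitals mark it in Fkbp11 (chr15:98727578-98727877, minus strand), Sec24d (chr3:123267246-123267545, plus strand), Sec23a (chr12:59011968-59012267, minus strand) and Mia3 (chr1:183369516-183369815, minus strand), all from RefSeq in GRCm38.p6.
Fkbp11: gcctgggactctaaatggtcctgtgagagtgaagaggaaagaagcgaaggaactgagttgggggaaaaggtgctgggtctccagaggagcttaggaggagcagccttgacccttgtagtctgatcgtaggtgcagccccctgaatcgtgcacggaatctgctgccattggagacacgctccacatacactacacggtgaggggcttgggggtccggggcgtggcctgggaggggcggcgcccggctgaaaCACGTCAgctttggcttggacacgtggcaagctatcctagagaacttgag
Sec24d: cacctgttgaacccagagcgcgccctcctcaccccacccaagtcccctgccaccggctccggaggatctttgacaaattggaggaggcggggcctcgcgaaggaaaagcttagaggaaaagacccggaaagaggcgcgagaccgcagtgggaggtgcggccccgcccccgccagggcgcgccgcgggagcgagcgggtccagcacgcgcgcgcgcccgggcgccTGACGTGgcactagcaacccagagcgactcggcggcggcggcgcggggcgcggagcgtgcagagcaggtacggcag
Sec23a: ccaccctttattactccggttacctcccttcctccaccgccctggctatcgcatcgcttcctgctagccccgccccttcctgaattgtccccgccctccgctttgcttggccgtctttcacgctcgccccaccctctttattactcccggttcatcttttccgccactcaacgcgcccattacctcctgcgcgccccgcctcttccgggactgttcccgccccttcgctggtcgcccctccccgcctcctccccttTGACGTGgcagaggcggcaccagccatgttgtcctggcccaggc
Mia3: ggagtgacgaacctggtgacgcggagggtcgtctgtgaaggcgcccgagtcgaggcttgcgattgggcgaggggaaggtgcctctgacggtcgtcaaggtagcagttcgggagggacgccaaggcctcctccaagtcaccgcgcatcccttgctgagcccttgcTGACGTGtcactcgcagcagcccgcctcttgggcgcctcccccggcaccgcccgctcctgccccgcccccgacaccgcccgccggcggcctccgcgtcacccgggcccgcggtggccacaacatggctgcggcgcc
In Sec24d the match begins 26 bases and in Mia3 86 bases before the annotated start. In Sec23a it begins 6 bases after it, and in the second Fkbp11 window at the start itself. Fkbp11 and Sec24d rose, while Sec23a and Mia3 did not pass the test.

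The shorter ACGTG, which lies inside TGACGTG and is the core that hypoxia-inducible factors and several ER stress factors bind, was found in 13 of the 28 windows and in 19.6% of all windows. Its genes were P4ha1, P4ha2, P4hb, P3h1, Ppib, Plod3, Serpinh1, Fkbp9, Fkbp11, Fkbp14, Sec23a, Sec24d and Mia3. The Serpinh1 window (chr7:99353190-99353489, minus strand) is shown as the start of the dedicated collagen chaperone, with ACGTG in capitals 171 bases before the start.
Serpinh1: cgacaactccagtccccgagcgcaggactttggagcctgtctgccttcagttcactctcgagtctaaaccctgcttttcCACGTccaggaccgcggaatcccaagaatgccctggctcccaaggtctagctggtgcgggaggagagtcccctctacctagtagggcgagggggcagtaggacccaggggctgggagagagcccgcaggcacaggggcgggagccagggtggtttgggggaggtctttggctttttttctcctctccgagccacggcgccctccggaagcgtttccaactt
TATAAA was found in 3 of the 28 windows (13.6% of all windows), those of Crtap, P4ha1 and Plod1. The AP-1 site TGACTCA was in 0 of 28 windows and in 5.2% of all windows. The ER stress element, read as CCAAT, 9 bases of any kind and CCACG, was in 0 of 28 and in 0.119%. These windows cover 24 of the 34 genes, and RefSeq windows of the others were not used here.

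Enzymes that remove the carboxyl propeptide rose, and 1 of their enhancers fell steeply. Bmp1, the main procollagen C-proteinase, read 12.37 and 12.45 in arthritic pools 1 and 2, against 11.60 and 11.45 in nonarthritic pools 1 and 2 (log2 fold change 0.89 ± 0.16, adjusted p = 0.00855 in limma). The related proteinase Tll1 read 9.48 and 8.97 in the arthritic pools, against 8.31 and 8.09 in the nonarthritic pools (1.03 ± 0.21, adjusted p = 0.014). Its arthritic pools stood 0.51 apart, the widest arthritic gap of the 31 genes. Both lost their calls with any pool left out (0.81 to 0.96 for Bmp1 and 0.77 to 1.28 for Tll1).

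Pcolce2, a secreted enhancer of procollagen C-proteinase, had the largest change of all 31 genes. It read 9.26 and 9.32 in arthritic pools 1 and 2, against 12.37 and 12.28 in nonarthritic pools 1 and 2. It averaged 9.29 ± 0.042 in arthritic and 12.33 ± 0.064 in nonarthritic synovium (SD, n = 2 pools each), which is 8.20-fold lower. The log2 fold change was -3.04 ± 0.15 (adjusted p = 7.77e-05 in limma), and -3.08 to -2.99 with a pool left out, with the call kept in all 4 fits. Only 0.207% of all genes had a lower log2 fold change. The related enhancer Pcolce read 11.26 and 11.13 in the arthritic pools, against 11.08 and 11.12 in the nonarthritic pools, a log2 fold change of 0.095 ± 0.16 (adjusted p = 0.753). Markers of muscle and fat fell in the same pools, as given above. So did the chondrocyte markers Chad (log2 fold change -3.615) and Cytl1 (-3.51), though 5 of 9 such markers rose. The fibroblast markers Clic5 (-2.48) and Dpp4 (-0.935) fell too, and 4 of 10 such markers rose. The part of any of these in the value of Pcolce2 was not tested.

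**Figure D3:**
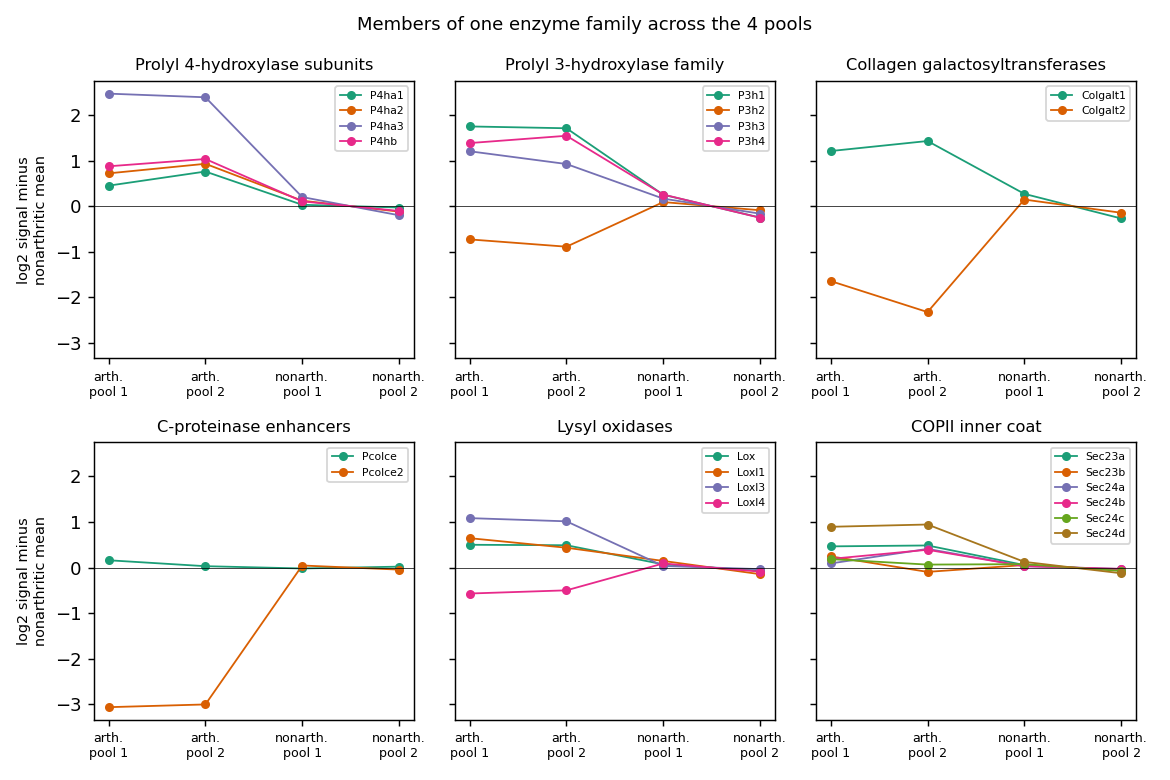
Log2 signal minus the mean of the nonarthritic pools (y axis) in arthritic pools 1 and 2 and nonarthritic pools 1 and 2 (x axis), with 1 line per gene in each of 6 enzyme or coat families. P3h2 fell while P3h1, P3h3 and P3h4 rose, and Colgalt2 fell while Colgalt1 rose. Pcolce2 fell while Pcolce was nearly flat, and Loxl4, which was not called, lay below the other lysyl oxidases in the arthritic pools.

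Lysyl oxidases convert lysines to the aldehydes from which crosslinks form. Loxl3 rose: it read 11.76 and 11.69 in arthritic pools 1 and 2, against 10.71 and 10.64 in nonarthritic pools 1 and 2 (log2 fold change 1.05 ± 0.15, adjusted p = 0.00363 in limma). The gap between groups was many times that between pools, and with a pool left out the value stayed between 1.02 and 1.09, with a call without nonarthritic pool 1 only. Lox, the founding member, read 13.11 and 13.10 in the arthritic pools, against 12.68 and 12.54 in the nonarthritic pools, and at 0.50 ± 0.16 did not pass (adjusted p = 0.0722). Loxl1, best known for elastic fibres, read 12.46 and 12.25 in the arthritic pools, against 11.96 and 11.67 in the nonarthritic pools (0.54 ± 0.18, adjusted p = 0.081). Loxl4 read 8.27 and 8.34 in the arthritic pools, against 8.93 and 8.75 in the nonarthritic pools (-0.54 ± 0.16, adjusted p = 0.0605). Lox, Loxl1 and Loxl4 passed when dim genes were left out of the adjustment (adjusted p of 0.0437, 0.0468 and 0.035). With an intensity trend in the variance prior Lox (0.00825) and Loxl1 (0.027) passed and Loxl4 (0.0675) did not. With quantile normalization again Loxl4 (0.0411) passed and Lox (0.0748) and Loxl1 (0.089) did not. None of them passed with arrays centred on medians (0.0562, 0.0632 and 0.149). Sparc, which binds collagen in the matrix, read 13.27 and 13.33 in the arthritic pools, against 13.17 and 13.13 in the nonarthritic pools, with a log2 fold change of 0.15 ± 0.15 (adjusted p = 0.588). Signals of Lox, Sparc and Ppib lay near the top of the array range, whose highest value was 14.27. The same held for Col1a1, Col1a2 and Col3a1, given below.

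Most of the listed collagen chains, on which these enzymes act, also rose. All 11 fibril-forming chains rose, with a median log2 fold change of 0.86. Col1a1, Col1a2 and Col3a1, the main chains of loose connective tissue, rose by 0.59 ± 0.16, 0.71 ± 0.17 and 0.80 ± 0.17 on the log2 scale (adjusted p of 0.0445, 0.0247 and 0.0159 in limma). With a pool left out, their log2 fold changes ran from 0.485 to 0.695, 0.595 to 0.825 and 0.67 to 0.93. Col11a1 (2.40 ± 0.23) and Col5a3 (1.41 ± 0.24), chains of thin fibrils, rose most. Of 18 other chains 12 rose and 1 fell, with a median of 0.86: Col12a1 (2.18 ± 0.23) and Col8a1 (1.77 ± 0.23) rose most, and Col10a1, the collagen of hypertrophic cartilage, fell by 3.93 ± 0.17. With arthritic pool 1, arthritic pool 2, nonarthritic pool 1 and nonarthritic pool 2 left out in turn, 0, 0, 4 and 1 fibril-forming chains and 1, 0, 9 and 2 of the other chains rose. At an unadjusted p under 0.05 in the fit of all 4 arrays, 11 and 13 chains were higher. Col10a1 fell in all 4 such fits.

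Other lists around the pathway held both rises and falls. Of 4 measured genes for removal of the amino propeptide, the proteinases Adamts3 (1.57 ± 0.21) and Adamts14 (0.87 ± 0.18) rose. Of 11 further modification genes 5 rose and 1 fell, with a median of 0.48: P3h4 and the disulfide isomerase Pdia6 (1.18 ± 0.17) rose most, and Colgalt2 fell. Of 15 other COPII and export genes 3 rose and 2 fell, with a median of 0.25. The retrieval receptor Kdelr3 (0.95 ± 0.15) and the coat scaffold Sec16a (0.84 ± 0.16) rose most, and Trappc2 (-0.81 ± 0.17) and the small GTPase gene Sar1b (-0.62 ± 0.17) fell. Of 14 general ER chaperones and stress genes 2 rose, Hyou1 (1.02 ± 0.18) and Hspa5, which encodes BiP (0.61 ± 0.16). The cochaperone Dnajb9 fell (-0.64 ± 0.16), and the list's median was 0.36. Of 7 relatives and partners of Creb3l1 none were called by limma, with 1 higher at an unadjusted p under 0.05 and a median of 0.27. With each pool left out in the order given above, the amino propeptide list had 0, 0, 1 and 0 rises, the modification list 0, 0, 3 and 0, the export list 0 in each fit and the chaperone list 0, 0, 1 and 0. The falls of Trappc2, Sar1b and Dnajb9 were not called in any of these fits, and that of Dnajb9 was not called with arrays centred on medians either. At an unadjusted p under 0.05 in the fit of all arrays these lists had 2, 6, 4 and 7 higher genes.

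Of 13 genes that assist fibril assembly 6 rose and 1 fell, with a median of 0.66. Emilin1 (2.09 ± 0.19) and Kera (1.35 ± 0.25) rose most, and Tnxb, a tenascin whose loss causes a human Ehlers-Danlos syndrome, fell by 2.39 ± 0.20. Of 10 TGF-beta ligands, receptors and latent binding proteins, a family that induces collagen genes, 2 rose and 1 fell, with a median of 0.08. The binding protein genes Ltbp2 (1.40 ± 0.25) and Ltbp1 (0.71 ± 0.15) rose and Ltbp4 (-1.22 ± 0.23) fell. Of 12 genes of the hypoxia response outside this pathway 1 rose and 3 fell, with a median of -0.053. The RNA of Hif1a, which encodes an oxygen-regulated factor, rose (0.88 ± 0.16), and Egln3 (-2.06 ± 0.44) and Bnip3 (-0.88 ± 0.22) fell most. No protein was measured. Egln3 varied within groups, with 8.69 and 9.95 in the arthritic pools, against 10.85 and 11.91 in the nonarthritic pools. With each pool left out in the same order, 1, 0, 3 and 1 assembly genes, 1, 0, 0 and 0 TGF-beta genes and 0, 0, 0 and 0 hypoxia genes rose, against 7, 4 and 4 higher at an unadjusted p under 0.05 in the fit of all arrays. The fall of Tnxb was called in all 4 of these fits, that of Ltbp4 without arthritic pool 1 only, and those of Egln3, Bnip3 and the third hypoxia gene in none.

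**Figure D4:**
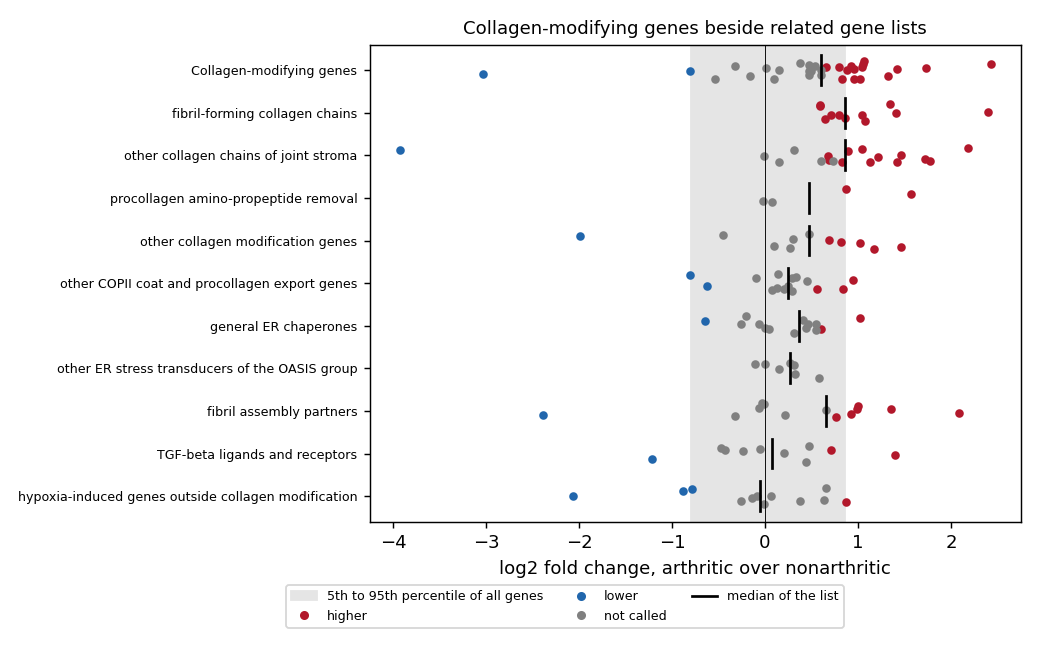
Log2 fold change of arthritic over nonarthritic synovium (x axis) for the 31 collagen-modifying genes and 10 related lists, with 1 point per gene, red for rises, blue for falls and grey for no call. Black bars mark medians, 0.61 for the collagen-modifying genes and 0.86 for both collagen lists, and the band spans the 5th to the 95th percentile of all genes.

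Differences between the nonarthritic pools ran mostly one way. Of the 31 genes 29 read higher in nonarthritic pool 1 than in pool 2, with a median difference of 0.18, against 0.03 for all genes. The exceptions were Pcolce, 0.04 lower in pool 1, and Ppib, equal in both. Between the arthritic pools 17 of the 31 read higher in pool 1, with a median difference of 0.01, against 0 for all genes. Fold changes of most of these genes were therefore larger without nonarthritic pool 1 and smaller without nonarthritic pool 2.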

How the data were processed

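Expression was measured on 4 arrays, 1 per pool. The authors deposited log2 signals, 1 per probe set and array, with 2 decimals. The submitters' processing notes name RMA, run with Affymetrix Power Tools or Affymetrix Expression Console or both. The sources used here give no version of them. That the scale is log2 was read from the values. Of 41345 probe sets, 23521 carried 1 symbol, 1814 several and 16010 none; 23328 of the first were matched to RefSeq by gene number and 0 were renamed. The probe set with the highest mean was kept for each of 22180 genes.

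Groups were compared with limma 3.58.1 in R 4.3.3 (lmFit and eBayes, 2-sided, no block, 2 residual and 5.98 prior degrees of freedom), with Benjamini-Hochberg adjustment over all genes. The test was run on simulated data first. Each SE is limma's. Pools are given as biological replicates in the series' design. The p-values rest on the spread of pools, which the prior shares across genes, and not on that between mice. The fit takes this spread as equal in both groups, although their pools differ in number of mice. The number of arrays limits the precision. Across genes, the difference of pool 1 and pool 2 in one group correlated with that in the other at 0.18, and nothing in the labels ties equal numbers together, so they were not paired. Members and lists were chosen with earlier results of these data known. All measured members are named. From each other list the 2 largest called rises and falls are named, with Col1a1, Col1a2 and Col3a1, and markers by their list. Sec24a, Sec24b, Sec24c, Clic5, Dpp4, Chad and Cytl1 were named after their values were seen. Alternatives left out each array, added the pool number as a block, averaged probe sets, centred arrays on medians, repeated quantile normalization, dropped dim genes and let the variance prior follow intensity. Promoter windows came from RefSeq (GRCm38.p6).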

Additional observations from a re-analysis of the deposited data

How the results depend on the processing

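Leaving out single arrays moved the counts most. Over the 4 fits that left out 1 pool each, 0 to 7 of the 31 collagen-modifying genes rose and 1 fell, against 15 and 2 with all arrays. Among all genes 47 to 637 rose and 105 to 584 fell, against 1933 and 1469, and among the related lists 0 to 21 rose and 2 to 4 fell, against 44 and 10. Fewer arrays leave 1 residual degree of freedom. With the pool number as a replicate block, 1216 of all genes rose and 1027 fell, against 1933 and 1469 without it. Of the 31 genes 12 rose and 2 fell with it. P4ha2 (adjusted p = 0.0583), Plod2 (0.0628) and Fkbp9 (0.0506) lost their calls and no other of the 31 changed its call. With this block 6 of the 11 fibril-forming collagen chains rose, 1 export gene fell, 1 chaperone rose and 0 fell, and 1 TGF-beta gene rose, against 11, 2, 2, 1 and 2 without it. In the other lists it moved no count by over 1.5 times. With arrays centred on medians 16 of the 31 rose and with quantile normalization again 14. Without dim genes 20 rose and with an intensity trend 21, and in these settings 2 or 3 fell. Among all genes 2314, 2088, 2346 and 2126 rose in the same order, and 1134, 1559, 1586 and 1581 fell. The main fit had 1933 and 1469. Leaving out dim genes also lowers the number of genes tested. Of the fibril-forming chains 10 rose with averaged probe sets and 10 with quantile normalization again. Centring left 1 export fall and 0 chaperone falls and gave 3 hypoxia rises. Quantile normalization gave 1 chaperone rise, 2 hypoxia rises and 2 TGF-beta falls. The intensity trend gave 4 chaperone rises, 2 hypoxia rises, 2 TGF-beta falls and 2 assembly falls, and leaving out dim genes 2 hypoxia rises. Of the relatives and partners of Creb3l1, 1 rose with averaged probe sets, with centring, without dim genes and with the trend. The log2 fold change of Mia3 ran from -0.13 to 0.16 with a pool left out: it turned to -0.13 without arthritic pool 1, -0.025 without nonarthritic pool 2 and -0.039 with quantile normalization again, and was not called in any of these. The cause was not tested. No other of the 31 genes changed sign.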
